A study of Mus musculus with 12 samples.

Results

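The Shank, Dlg and Homer genes encode scaffold proteins of the excitatory synapse, and their transcripts were followed in the adult hippocampus of mice exposed to ethanol before birth, to maternal separation stress after birth, or to both. The set was fixed by name as Shank1 to Shank3, Dlg1 to Dlg4 and Homer1 to Homer3, which is 10 of the 35580 genes with a matched transcript in the deposited table. They carried 112 annotated transcripts, of which 87 passed the filter on low values (at least 0.1 TPM in 6 or more of 12 libraries). Rounded to whole numbers, 17 never exceeded 3 read pairs in any library. All 10 genes passed as sums over their transcripts.

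Scaffold proteins hold the postsynaptic density together, the protein-rich layer under the membrane of a dendritic spine. The Dlg proteins lie closest to the membrane and bind glutamate receptors and adhesion molecules through PDZ domains, the Shank proteins lie deeper and connect the Dlg layer to the actin cytoskeleton, and the Homer proteins tie Shank to metabotropic glutamate receptors and to calcium stores. Loss or mutation of several of these genes, SHANK3 and the X-linked DLG3 among them, is known to cause intellectual disability or autism in people.

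Male C57BL/6 mice (C57BL/6J in the study's methods) were taken at postnatal day 70, with 3 control, 3 ethanol, 3 stress and 3 ethanol + stress mice. The dams of the ethanol and ethanol + stress mice could choose between water and 10% ethanol in water, whereas the dams of the control and stress mice had water only. The stress and ethanol + stress pups were isolated for 3 h a day from postnatal day 2 to 14, and the other pups stayed with the dam. Drinking was voluntary and according to the study's methods continued for a time after birth, and only part of each litter was separated, so that mice of different groups could be littermates; which mice shared a dam was not given. RNA came from the whole dissected hippocampus, and in such bulk RNA fewer cells of a type and less RNA per cell cannot be told apart.

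Values were in TPM, a measure of abundance corrected for transcript length, which the authors had already scaled between libraries, so that the sums ran from 889222.3 to 1173649.8 per library. The depth recovered from the smallest steps between low values was 12040000 to 14910000 read pairs. Genes that mark dentate granule cells, CA1 and CA3 pyramidal cells, interneurons and glia were expressed in every library, whereas 3 of the 4 cerebellar markers (Pcp2, Ppp1r17 and Gabra6) averaged under 1 TPM. The 4 thalamic markers summed to between 16.7 and 29.3 TPM per library, and the 5 striatal markers to between 42.8 and 73.1 TPM. Of these, only Drd2 averaged under 1 TPM, and whether neighbouring tissue was included was not tested. Markers of choroid plexus summed to between 38.1 and 7231 TPM per library, and markers of blood to between 1603 and 2022 TPM in control but 2454 to 6815 TPM in the 9 exposed mice.

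Each exposure was compared with control with limma on log2(TPM + 0.5), on which changes of rare transcripts appear smaller than they are, and a feature with an unadjusted p under 0.01 (the threshold of the study) was called. Each adjusted p given is limma's, by the Benjamini-Hochberg procedure over all features of the same kind. The 3 comparisons share the same 3 control mice. A fold change is written below as a difference on the log2 scale with its standard error (SE).

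The members differed in level by almost an order of magnitude, with Dlg4 at the top and Shank2 at the bottom. In control mice Dlg4, which encodes PSD-95, the main organiser of glutamate receptors in the postsynaptic density, had a summed level of 214 TPM ± 6.85 (SD, n = 3). Dlg2 (PSD-93) followed at 119 TPM ± 9.25, Homer1 at 85.3 TPM ± 4.03, Dlg3 (SAP102, which carries NMDA receptors to young synapses) at 81.5 TPM ± 1.34, and Dlg1 (SAP97, which takes part in the delivery of AMPA receptors) at 78.5 TPM ± 2.32. Below these lay Shank3 at 50.3 TPM ± 6.12, Homer2 at 40.6 TPM ± 3.81, Homer3 at 39.8 TPM ± 2.11, Shank1 at 35.8 TPM ± 3.55 and Shank2 at 23.6 TPM ± 1.86. Between neighbours in this order, the control values of Homer1 and Dlg3, of Dlg3 and Dlg1, of Homer2 and Homer3, and of Homer3 and Shank1 overlapped, and those of the other pairs did not.

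The members also differed in how much they varied from mouse to mouse. Over all 12 libraries the coefficient of variation (SD over mean) was 3.89% for Dlg1, 7.48% for Homer1 and 9.34% for Dlg4, but 16.8% for Shank3, 18.5% for Dlg3 and 24.0% for Shank1. Shank1 and Shank3 are the members with the highest GC content, 62.5% and 61.6% averaged over their transcripts by abundance, against 41.2% for Homer1. The order did not hold for every member. Dlg3 had 51.4%, whereas Homer3 and Dlg4, with coefficients of variation of 9.41% and 9.34%, had 58.7% and 57.6%.

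**Figure D1:**
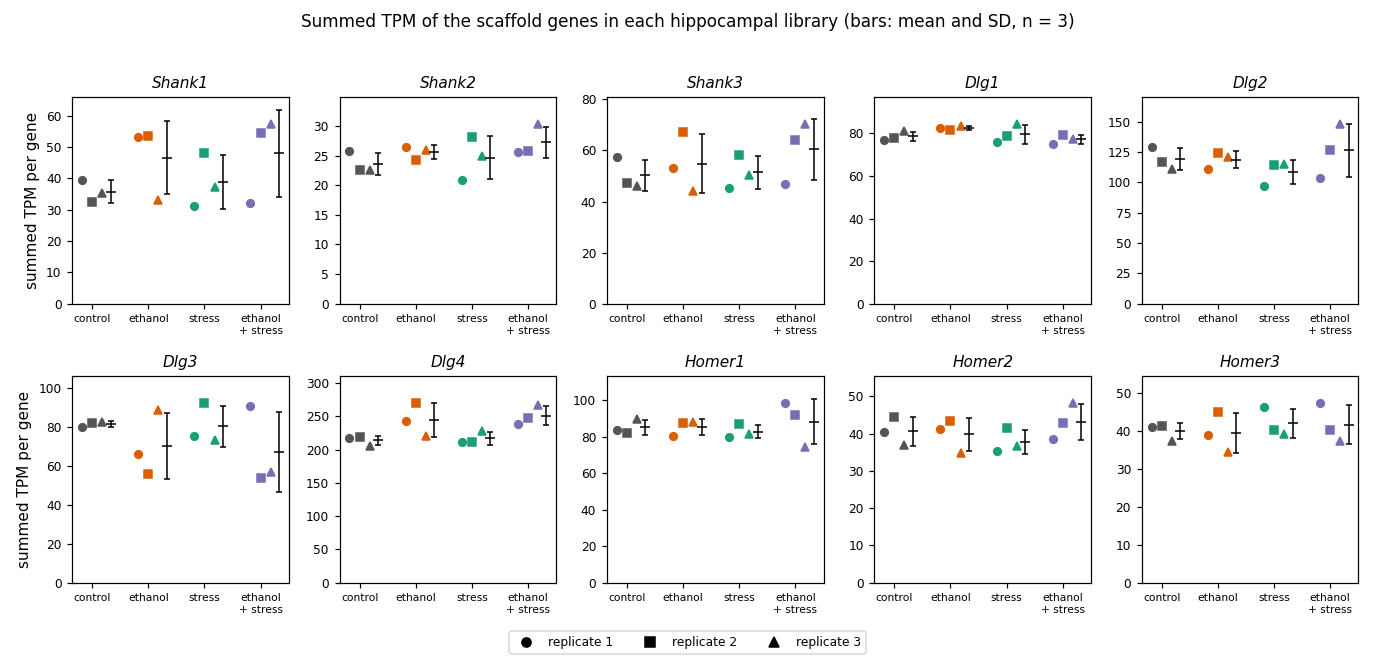
Summed TPM per gene (y axis, starting at 0) of the 10 scaffold genes in each library, by group; each point is 1 mouse, its shape gives the replicate number, and the bar beside each group is the mean with its SD (n = 3). Dlg4 lies between 206 and 219 TPM in control and between 220 and 270 TPM in the 6 mice with ethanol, whereas Shank1, Shank3 and Dlg3 spread widely within the ethanol and ethanol + stress groups.

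No scaffold gene was called in ethanol, stress or ethanol + stress mice against control at the level of summed TPM. Among all 18434 genes tested, 0.678% were called with ethanol, 0.51% with stress and 0.971% with both exposures, and beside these shares 0 of 10 is no result about the scaffolds. At an unadjusted limma p under 0.05 the count was 0 of 10 in ethanol, 0 of 10 in stress and 1 of 10 (Dlg4) in ethanol + stress mice, beside 3.63%, 2.4% and 5.37% of all genes. The interaction of ethanol and stress was called for 0 of 10 genes (0.461% of all genes) and the main effect of stress for 0 of 10 (0.586% of all genes), and none of the 10 had a limma p under 0.05 in either. A p that misses the threshold does not show that the levels were equal, and with 3 mice a group the SE of a difference ran from 0.07 on the log2 scale for Dlg1 to 0.24 for Shank1. The lowest adjusted limma p among the 10 genes was 0.997 with ethanol, 1 with stress and 0.791 with both exposures. The median difference of the 10 genes was 0.035 with ethanol, 0.019 with stress and 0.080 with both exposures, beside 0.023, 0.004 and 0.023 over all genes. After rescaling to a common total the medians were −0.046, 0.002 and −0.054, beside −0.048, −0.011 and −0.092 over all genes, so that the sign with ethanol and with both exposures depended on the scaling.

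**Figure D2:**
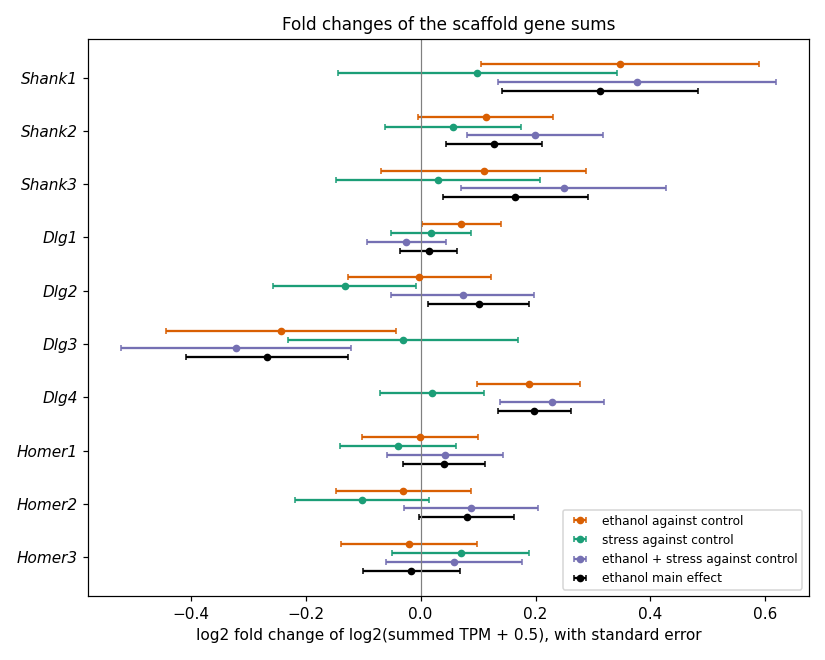
Differences of the 10 gene sums from control on the log2(TPM + 0.5) scale (x axis; points, with bars of 1 standard error, from the limma model of 12 libraries) in ethanol, stress and ethanol + stress mice, and the main effect of ethanol. For Dlg4 and Shank1 the 3 estimates with ethanol all lie more than 1 standard error above 0, and for Dlg3 they all lie more than 1 standard error below 0.

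Dlg4 was the only member called in the main effect of ethanol. Its difference there (0.20) was smaller than that of Shank1 (0.31), which was not called. The summed level of Dlg4 was 217, 219 and 206 TPM in control, 243, 270 and 220 TPM in ethanol, 211, 212 and 228 TPM in stress, and 238, 248 and 267 TPM in ethanol + stress mice. All 6 mice with ethanol lay above all 3 control mice, although ethanol replicate 3, at 220 TPM, did so by a narrow margin and lay below stress replicate 3. Groups that do not overlap were found for 8.25% of all genes in ethanol and for 10.2% in ethanol + stress mice, and among the members for Dlg1 and Dlg4 in ethanol and for Dlg4 in ethanol + stress mice.

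The difference of Dlg4 from control was 0.19 (SE 0.09) in ethanol and 0.23 (SE 0.09) in ethanol + stress mice, and 0.02 (SE 0.09) in stress mice, with adjusted limma p values of 0.997, 0.791 and 1. Only the main effect of ethanol, the mean of both groups with ethanol against the mean of both groups without, was called, at 0.20 (SE 0.06). That was 1 of the 10 members where 1.12% of all genes were called, and the adjusted p of limma was 0.76. The call was narrow. It was lost under 6 of the 10 other settings, in 5 of them with a difference of 0.18 to 0.20 and after rescaling to a common total with one of 0.10. It was kept in only 2 of 12 repeats that each left out 1 library (without ethanol replicate 3 or ethanol + stress replicate 1), over which the difference ran from 0.16 to 0.24. All 5 blood markers were also called higher in the ethanol main effect, with a median difference of 0.82, and their part in the Dlg4 result was not tested.

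Among all genes the direction of calls depended on scaling. In the ethanol main effect 73.4% of called genes were higher as deposited and 50% after rescaling to a common total, in ethanol mice these shares were 76% and 60%, in ethanol + stress mice 71.5% and 45.8%, and in the main effect of stress 52.8% and 40.7%.

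The higher Dlg4 level sat mostly in Dlg4-203, a transcript of 20 exons and 724 codons that held 72.6% of the gene's TPM. Dlg4-203 stood at 148, 154 and 150 TPM in control, 178, 204 and 164 TPM in ethanol, 162, 155 and 168 TPM in stress, and 170, 171 and 195 TPM in ethanol + stress mice. Each of the 9 exposed mice lay above each control mouse, but how many of all transcripts did so was not determined. In single comparisons, 10.2% (ethanol), 8.22% (stress) and 10.2% (both exposures) of all transcripts did not overlap with control. The same 3 control mice served each time. The difference of Dlg4-203 was 0.26 (SE 0.10) in ethanol, 0.10 (SE 0.10) in stress and 0.24 (SE 0.10) in ethanol + stress mice, none of which was called. Its share of the gene was 70.5% in control, 74.4% with ethanol, 74.4% with stress and 71.2% with both exposures, and against the rest of its gene the transcript was not called either. No base and no exon junction of Dlg4-203 is absent from the other Dlg4 transcripts, so its value rests on how kallisto divided shared read pairs.

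Dlg3, a gene that the study itself singled out on these samples and whose values here are therefore not independent evidence, was low in some mice with ethanol and not in others. The study reported increased expression of Dlg3 in ethanol + stress mice from an analysis of single transcripts, which is another measure than the gene sum. The summed level of Dlg3 was 79.9, 82.1 and 82.4 TPM in control, 65.9, 55.7 and 88.6 TPM in ethanol, 75.3, 92.2 and 73.2 TPM in stress, and 90.8, 53.8 and 56.6 TPM in ethanol + stress mice. The low values, all under 66 TPM, came from ethanol replicates 1 and 2 and ethanol + stress replicates 2 and 3, whereas ethanol replicate 3 and ethanol + stress replicate 1 lay above every control. Dlg3 differed from control by −0.24 (SE 0.20) in ethanol, −0.03 (SE 0.20) in stress and −0.32 (SE 0.20) in ethanol + stress mice. Without ethanol + stress replicate 1 the ethanol + stress difference became −0.56 and the ethanol main effect changed from −0.27 to −0.39, and Dlg3 was called in both. Leaving out that library also raised the calls among all 18434 genes from 179 to 763 in ethanol + stress mice and from 207 to 653 in the ethanol main effect.

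Shank1 and Shank3 were highest in 3 of the 4 libraries with low Dlg3. Shank1, which encodes a scaffold of the spine head, had 39.5, 32.4 and 35.4 TPM in control, 53.2, 53.4 and 33.1 TPM in ethanol, 31.3, 48.0 and 37.2 TPM in stress, and 32.1, 54.4 and 57.3 TPM in ethanol + stress mice. Shank3 had 57.3, 47.4 and 46.1 TPM in control, 53.0, 67.4 and 44.2 TPM in ethanol, 45.5, 58.3 and 50.4 TPM in stress, and 47.0, 64.0 and 70.3 TPM in ethanol + stress mice. For both genes ethanol replicate 2 and ethanol + stress replicates 2 and 3 were the 3 highest libraries, and ethanol replicate 3 and ethanol + stress replicate 1 lay within or near the control values. The differences from control were 0.35 (SE 0.24) and 0.38 (SE 0.24) for Shank1 in ethanol and ethanol + stress mice, and 0.11 (SE 0.18) and 0.25 (SE 0.18) for Shank3, and neither gene was called.

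Other values of the same libraries are given beside these 3 genes. The slope of all genes' levels over transcript length, estimated on 11415 genes as log2 units per doubling of length against the mean of the libraries, was −0.143 in ethanol replicate 2, −0.148 in ethanol + stress replicate 2 and −0.102 in ethanol + stress replicate 3, but 0.118 in ethanol replicate 3 and 0.091 in ethanol + stress replicate 1. It lay between 0.012 and 0.071 in control and between −0.048 and 0.099 in stress mice. Not every library followed this order, since ethanol replicate 1, with a slope of −0.006, had the fourth lowest Dlg3 (65.9 TPM) and 53.2 TPM of Shank1, and stress replicate 2, with a slope of 0.099, had 48.0 TPM of Shank1 and 58.3 TPM of Shank3. The summed level of 5 oligodendrocyte markers ran from 2638 TPM in ethanol replicate 3 and 3441 TPM in ethanol + stress replicate 1 to 5085 TPM in ethanol replicate 2 and 5908 and 5868 TPM in ethanol + stress replicates 2 and 3, beside 4150 to 4524 TPM in control mice, but it was 5335 TPM in stress replicate 1, the library with the lowest Shank1. The 3 CA1 markers had 85.8 TPM in ethanol replicate 2 and 80.5 and 94.0 TPM in ethanol + stress replicates 2 and 3, against 121 to 138 TPM in control mice. The 5 astrocyte markers summed to 1101, 1111 and 1173 TPM in these 3 libraries, to 738 TPM in ethanol replicate 3 and 782 TPM in ethanol + stress replicate 1, and to 889 to 929 TPM in control mice. The 3 CA3 markers summed to 149, 151 and 138 TPM in the same 3 libraries and to 100 to 116 TPM in control mice. Such sums do not show that all markers of a cell type moved alike. With ethanol against control, 2 of 3 CA3, 3 of 5 astrocyte and 0 of 5 oligodendrocyte markers had a group difference above 0. With both exposures against control, 2, 4 and 3 of them did. Of the 3 CA1 markers, 0 did so in either comparison. The part of the slopes and marker sums in the Dlg3, Shank1 and Shank3 values was not tested. With each library's trend over length removed, the ethanol + stress differences were −0.27 for Dlg3 (−0.32 before), 0.47 for Shank1 (0.38 before) and 0.33 for Shank3 (0.25 before), and none of the 3 was called before or after. The libraries also differed in their TPM sum, which was highest in ethanol replicate 2 (1173649.8) and ethanol + stress replicates 3 and 2 (1130570.7 and 1126489.7) and lowest in ethanol replicate 3 (889222.3). After rescaling to a common total the same differences were −0.46 for Dlg3, 0.24 for Shank1 and 0.12 for Shank3, again with none called.

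**Figure D3:**
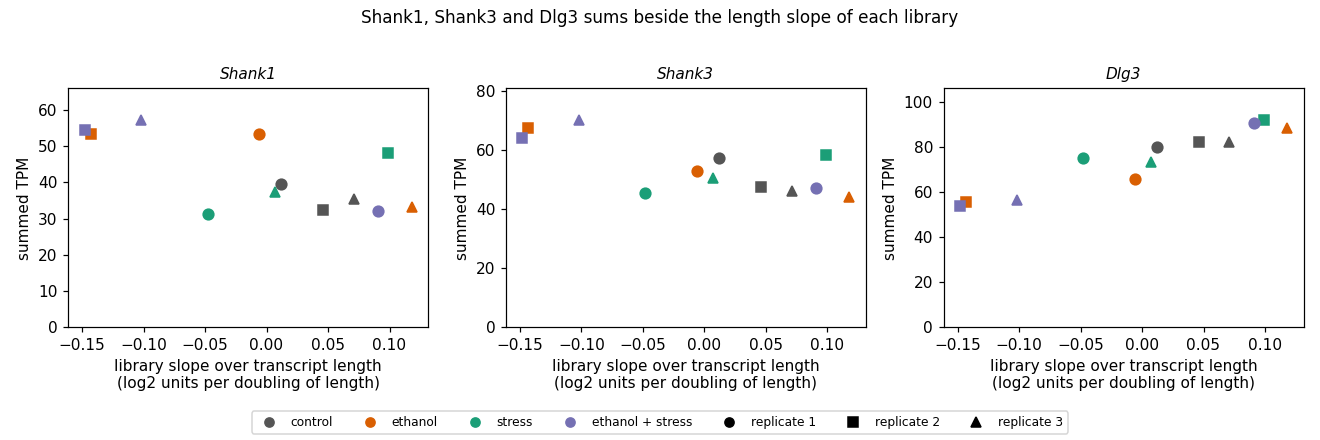
Summed TPM of Shank1, Shank3 and Dlg3 (y axes, starting at 0) against each library's slope over transcript length (x axis, log2 units per doubling of length); each point is 1 library, colours give the group and shapes the replicate number. The libraries with slopes near −0.1 or below (ethanol replicate 2, ethanol + stress replicates 2 and 3) sit lowest for Dlg3 and high for Shank1 and Shank3, while ethanol replicate 3, with a slope of 0.118, sits high for Dlg3 and low for the others.

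None of the remaining members was called as a gene sum. Dlg1 ran only from 74.9 to 84.3 TPM over the 12 mice, and its 3 ethanol mice, at 82.3, 81.7 and 83.4 TPM, lay just above the controls, at 76.7, 77.7 and 81.1 TPM. That difference was 0.07 (SE 0.07), and −0.01 after rescaling to a common total. Dlg2 ran from 97.0 to 148 TPM, with its lowest value in stress replicate 1 and its highest in ethanol + stress replicate 3, and differed from control by −0.13 (SE 0.12) in stress mice. Shank2 ran from 20.9 to 30.3 TPM and differed by 0.20 (SE 0.12) in ethanol + stress mice, where 1 of the 3 mice lay above every library of the other groups; this difference was 0.07 after rescaling and 0.31 with the length trend removed. Homer2 (34.9 to 48.2 TPM) and Homer3 (34.5 to 47.3 TPM) differed from control by at most 0.10 in either direction in any group, and Homer1 by at most 0.04. After rescaling these bounds became 0.12 for Homer2 and Homer3 and 0.09 for Homer1, whose ethanol + stress difference turned from 0.04 to −0.09.

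A total of 5 member transcripts were called in at least 1 comparison, and all of them were minor forms of their genes. In ethanol mice 4 of 87 transcripts were called (1.26% of all 59852 transcripts were), in stress mice 2 (0.914%), in ethanol + stress mice 2 (1.21%), and for the interaction of ethanol and stress 1 (0.854%). Transcripts whose exposed mice all lay on one side of the controls numbered 11 of 87 in ethanol (10.2% of all transcripts), 8 in stress (8.22%) and 10 in ethanol + stress mice (10.2%). For both groups with ethanol, the calls and these counts include Shank2-204. The filter made its groups differ, as described below, so its part in them supports nothing. The called transcripts were Shank2-204, Dlg4-222, Dlg3-206, Dlg3-205 and Dlg2-209, which held between 0.344% and 5.2% of their gene's TPM.

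Of these transcripts 4 have a stretch that no other transcript of their gene contains, and only read pairs on that stretch, or on its junctions, can be assigned to them without estimate. The edge of each stretch is shown with the exon beside it, 100 bases from GENCODE transcripts of GRCm38 (mm10), 5′ to 3′ on the plus strand, with the transcript's own bases in capitals. In Dlg3-206 the capitals are the start of a retained intron of 305 bases between 2 coding exons, beginning with the GT of a splice donor; in Dlg3-205 they are the 3′ end of an intron, closing with the AG of an acceptor; in Shank2-204 they end an exon that is spliced to the exon shared with the coding transcripts; in Dlg2-209 they continue a terminal exon.
Dlg3-206 (chrX:100772910-100773009): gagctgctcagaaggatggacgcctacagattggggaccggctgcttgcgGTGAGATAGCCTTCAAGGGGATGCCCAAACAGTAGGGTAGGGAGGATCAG
Dlg3-205 (chrX:100808003-100808102): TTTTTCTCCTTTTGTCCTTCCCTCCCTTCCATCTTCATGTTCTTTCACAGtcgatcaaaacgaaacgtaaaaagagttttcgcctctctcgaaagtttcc
Shank2-204 (chr7:144418310-144418359 joined to chr7:144420559-144420608): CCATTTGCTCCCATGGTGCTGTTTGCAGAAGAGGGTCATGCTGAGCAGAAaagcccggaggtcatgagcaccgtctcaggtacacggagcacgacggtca
Dlg2-209 (chr7:92288290-92288389): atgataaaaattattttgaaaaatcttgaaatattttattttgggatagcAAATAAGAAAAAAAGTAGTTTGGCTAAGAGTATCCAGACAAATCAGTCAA

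Shank2-204 rested on 1 or 2 read pairs a library, and it passed the filter on low values only through the 6 mice with ethanol, so that its groups had to differ and its calls and adjusted p values support nothing. This noncoding transcript of 2 exons and 641 bases (chr7:144417825-144420664) was listed at 0 in all control and all stress libraries, at 0.257, 0.297 and 0.243 TPM in ethanol and at 0.513, 0.510 and 0.573 TPM in ethanol + stress mice. Those values amount to 0.994, 0.984 and 0.986 read pairs in ethanol and to 1.98, 1.99 and 1.97 read pairs in ethanol + stress mice, that is 1 read pair in each ethanol library and 2 in each ethanol + stress library. The adjusted p of limma was 0.0457 in ethanol + stress and 0.389 in ethanol mice, and it was 0.687 for the ratio to the rest of Shank2 in ethanol + stress mice. After rescaling to a common total, with a pseudocount of 1, with only the groups compared or with the replicate block, 0 of all transcripts had an adjusted p under 0.05 in ethanol + stress mice. No library reached the floor of 3 read pairs, and therefore no fold change is given, and a minimum of 1 TPM removed the transcript from the test.

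Dlg4-222 was called in ethanol and in stress mice, again from few read pairs. This fragment of a coding transcript, 5 exons and 389 bases long (chr11:70026999-70031149), was at 0, 0 and 1.66 read pairs in control, 5.81, 9.36 and 4.55 with ethanol, 3.06, 4.77 and 7.49 with stress, and 5.61, 2.99 and 1.46 with both exposures. The ethanol and stress mice all lay above the controls, whereas ethanol + stress replicate 3 lay below control replicate 3. Summed over 3 libraries and set against depth, its read pairs in ethanol were 9.28 times those of control (95% interval 2.25 to 81.9, from 20 against 2 read pairs). The ratios were 6.9 in stress (1.6 to 62.2) and 4.62 in ethanol + stress mice (0.985 to 43.4). These exact intervals treat estimated read pairs, rounded to whole numbers, as counts, and they leave out the spread between mice. Every control library lay under the floor of 3 read pairs, so the size of these ratios is uncertain.

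On the log2(TPM + 0.5) scale Dlg4-222 differed from control by 2.61 (SE 0.55) in ethanol and 2.22 (SE 0.55) in stress mice, and the ratio to the rest of Dlg4 was called in both as well, with differences of 2.44 and 2.22. The difference in ethanol + stress mice was 1.69 (SE 0.55) and was not called, but it was called with a pseudocount of 0.1, without control replicate 3 and without ethanol + stress replicate 3. The interaction, −3.14 (SE 0.78), was called with an adjusted limma p of 1, and the adjusted p values in ethanol and stress mice were 0.503 and 0.885. The stress call was lost without control replicate 1 (1.94), without control replicate 2 (1.94) and without stress replicate 3 (2.00), and the call on the stress ratio was lost in the same 3 repeats. Dlg4-222 has no base and no junction of its own among Dlg4 transcripts, and its read pairs were thus assigned by estimate.

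Dlg3-206, the transcript with the retained intron shown above, was higher in stress and in ethanol + stress mice. Its level was 0, 0.569 and 0 TPM in control, 0.484, 0.503 and 0.435 TPM in ethanol, 0.635, 0.932 and 1.84 TPM in stress, and 0.864, 1.25 and 0.935 TPM in ethanol + stress mice. As read pairs these values were 0, 20.5 and 0 in control, 20.8, 18.4 and 19.5 with ethanol, 27.6, 33.9 and 82.4 with stress, and 36.9, 53.8 and 36.0 with both exposures. The stress and ethanol + stress mice all lay above all controls, while in TPM the ethanol mice lay between the zeros and the one expressed control.

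The difference of Dlg3-206 was 1.28 (SE 0.37, limma adjusted p = 0.97) in stress and 1.23 (SE 0.37, limma adjusted p = 0.808) in ethanol + stress mice, and 0.60 (SE 0.37) in ethanol mice. Each call was lost without control replicate 1 or 3, the 2 controls at 0 (1.10 in stress, and 1.05 in ethanol + stress). The stress call was also lost without stress replicate 2 (1.34) or 3 (0.99), and the ethanol + stress call without any 1 of that group's replicates (1.12 to 1.30). With only the groups compared in the model both calls were lost. Against the rest of Dlg3 the transcript was called in ethanol + stress mice, with a difference of 1.57 (SE 0.45), and not in stress mice, with 1.33 (SE 0.45). The stress ratio was called with a pseudocount of 0.1, with recovered read pairs and without control replicate 2. The ethanol + stress ratio call was lost with only the groups compared, and without control replicate 1 (1.40) or 3 (1.38) or ethanol + stress replicate 2 (1.32) or 3. Dlg3-206 is a small part of the gene, 0.233% of Dlg3 TPM in control, 0.676% with ethanol, 1.42% with stress and 1.52% with both exposures, and 3 coding transcripts (Dlg3-202, Dlg3-201 and Dlg3-204) held 39.8%, 34.2% and 13.8% over all mice.

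Dlg3-205 fell in ethanol mice. This noncoding transcript of 559 bases (chrX:100808000-100814830) was at 5.54, 4.85 and 5.03 TPM in control, 0.918, 1.69 and 0 TPM in ethanol, 3.12, 9.23 and 4.13 TPM in stress, and 2.79, 2.86 and 6.51 TPM in ethanol + stress mice. The ethanol mice lay below every other mouse, with at most 4.56 read pairs where the controls had 13.0 to 16.3. The difference was −2.28 (SE 0.54, limma adjusted p = 0.571), and the call was kept under every setting tried, including the repeats that left out 1 control or ethanol library. In stress and ethanol + stress mice the differences were −0.04 and −0.40, and the interaction, 1.92 (SE 0.77), was not called. Against the rest of Dlg3 the ethanol difference was −2.11, which was not called. Of its 559 bases 53 are its own.

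Dlg2-209 rose in ethanol mice. It is annotated as a transcript with a retained intron, of 14 exons and 4236 bases (chr7:91090726-92288935), and 596 of those bases are its own. Its read pairs were 0, 7.74 and 2.99 in control, 31.6, 17.5 and 19.2 with ethanol, 6.36, 9.94 and 23.1 with stress, and 20.1, 12.4 and 17.6 with both exposures, so that all ethanol and ethanol + stress mice lay above all controls. The difference was 0.91 (SE 0.26, limma adjusted p = 0.712) in ethanol, 0.49 (SE 0.26) in stress and 0.69 (SE 0.26) in ethanol + stress mice. The ethanol call was lost without control replicate 1 (0.77), control replicate 3 (0.89) or ethanol replicate 1 (0.78), with only the groups compared in the model, and with the replicate block (0.91, SE 0.28).

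**Figure D4:**
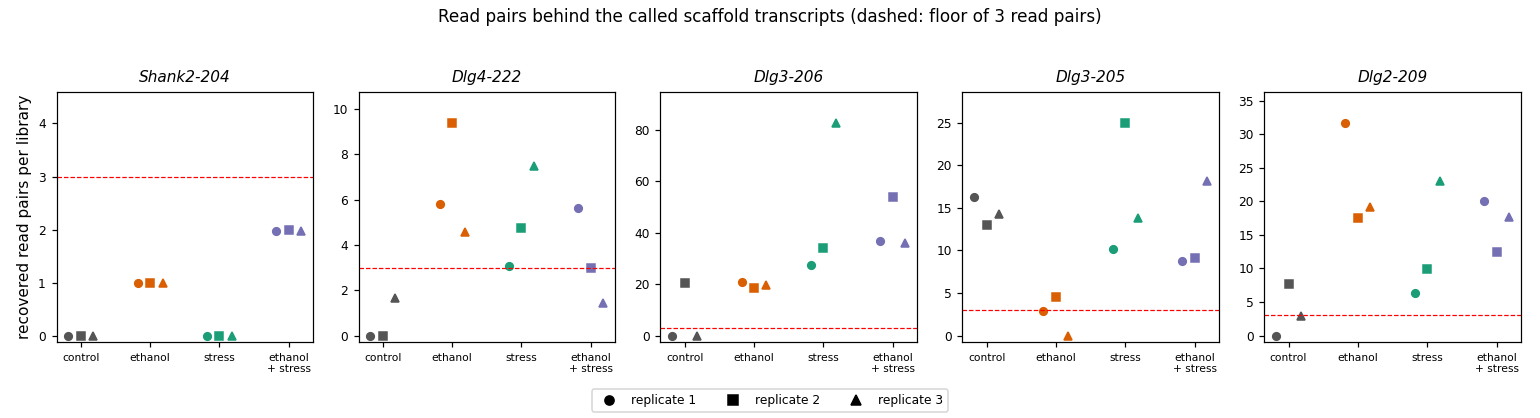
Read pairs recovered per library (y axis) for the 5 called member transcripts, by group; each point is 1 mouse, shapes give the replicate number, and the dashed line marks the floor of 3 read pairs. Shank2-204 stays under the floor everywhere, Dlg3-206 reaches 82.4 read pairs in stress replicate 3, and Dlg3-205 drops to between 0 and 4.56 read pairs in ethanol mice.

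Relative to the rest of their gene, 1 of 87 transcripts was called in ethanol mice (1.31% of 52732 isoform ratios), 1 in stress mice (1.05%) and 2 in ethanol + stress mice (1.28%), all among the transcripts above. Of the last 2, 1 was Shank2-204, whose calls support nothing. Summed by annotated class of transcript, 1 of 28 sums was called in ethanol (1.2% of 32112 sums), 1 in stress (0.75%) and 2 in ethanol + stress mice (1.08%). These were the processed transcripts of Shank2 and the retained introns of Dlg3, each of which consists of 1 called transcript, so they add nothing to those results.

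The classes of transcript differed between members of the same family. Protein-coding transcripts held 99.1% of Dlg4, 99.2% of Shank2, 98.8% of Homer1 and 97.0% of Homer2 TPM over the 12 mice, but 64.6% of Dlg2, where 7 processed transcripts held 26.0%, and 55.1% of Homer3. Homer3, the Homer gene best known from Purkinje cells, held 44.9% of its TPM in 3 transcripts with retained introns, and this share was 42.5% in control, 46.2% with ethanol, 46.4% with stress and 44.6% with both exposures. The retained-intron share of Shank1 was 13.0% in control, 12.8% with ethanol and 15.5% with stress but 5.71% with both exposures, and that of Dlg2 was 13.8% in control, 8.4% with ethanol, 4.99% with stress and 10.1% with both exposures. Neither of these sums was called. The Dlg2 sum differed by −1.61 (SE 0.53) in stress mice and was called there under 6 of the 11 other settings, which were median-of-ratios scaling, rescaled totals, the length or the GC trend removed, only the groups compared and the replicate block. Most of it was Dlg2-213, named after its values were seen, a transcript of 448 bases at 12.3, 11.2 and 15.2 TPM in control, 0, 14.5 and 4.32 TPM in ethanol, 0.353, 0.174 and 4.57 TPM in stress, and between 2.49 and 14.0 TPM in ethanol + stress mice. The stress mice all lay below the controls. The difference in stress mice, −3.22 (SE 1.14, limma adjusted p = 1), was not called, but it was with only the groups compared, with the replicate block and without stress replicate 3.

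Most members were led by 1 or a few coding transcripts, none of which was called with all 12 libraries. Without ethanol + stress replicate 1 the leading transcripts Dlg3-202, Homer1-203, Shank1-202 and Shank3-201 were called in ethanol + stress mice, where calls among all transcripts went from 726 to 1337. Without ethanol replicate 3 Dlg4-203 was called in ethanol mice, where calls among all transcripts went from 752 to 847. Shank3-201 (22 exons, 1730 codons) held 66.3% of Shank3, and Homer1-203 43.4% of Homer1. Shank1-202, Dlg2-204 and Homer3-203 held 40.6%, 42.2% and 44.8% of their genes. In Homer2, transcripts Homer2-201 and Homer2-202 held 47.4% each, in Shank2 the coding Shank2-202 and Shank2-205 held 43.1% and 43.3%, and in Dlg1 the leading transcript, Dlg1-204, held 27.7%.

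Homer1 makes 2 kinds of protein that act against each other. Long Homer1 binds its partners with an EVH1 domain and joins into tetramers through a coiled coil, whereas the short form (Homer1a), an immediate early product that neuronal activity induces, lacks the coiled coil and competes with the long form. In the annotation Homer1-204 encodes the short form of 186 codons and Homer1-203 the leading long form of 366 codons, and they share 527 coding nucleotides, or 175 whole codons. The short form reads on into the intron where the long form is spliced, as the coding sequences at the point of divergence show, again from GENCODE on GRCm38, plus strand, with the bases after the divergence in capitals.
Homer1-204, short (chr13:93356050-93356110): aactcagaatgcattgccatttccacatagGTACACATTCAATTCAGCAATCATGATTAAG
Homer1-203, long (chr13:93356050-93356079 joined to chr13:93386345-93386375): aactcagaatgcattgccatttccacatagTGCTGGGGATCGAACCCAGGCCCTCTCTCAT

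Neither form of Homer1 was called in any comparison. Homer1-204 stood at 13.8, 10.8 and 15.9 TPM in control, 11.2, 8.32 and 13.9 TPM in ethanol, 12.9, 17.4 and 7.08 TPM in stress, and 18.9, 20.1 and 7.52 TPM in ethanol + stress mice. The short form spread more in the groups with stress, from 7.08 to 20.1 TPM, than in the groups without, from 8.32 to 15.9 TPM, but the difference in spread was not tested. Its difference from control was −0.28 (SE 0.39) in ethanol, −0.18 (SE 0.39) in stress and 0.09 (SE 0.39) in ethanol + stress mice. The share of the short form in short plus 3 long coding transcripts was 18.3% ± 3.21 (SD, n = 3) in control, 16.3% ± 2.25 with ethanol, 17.8% ± 6.25 with stress and 22.0% ± 7.9 with both exposures. Homer1-203 differed by −0.09, −0.16 and −0.27, and in ethanol + stress mice it ranged from 27.9 to 44.3 TPM, against 36.9 to 42.6 TPM in control mice.

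Among other genes induced by neuronal activity, 4 of 12 immediate early genes, all tested, were called lower and 0 higher in the main effect of stress, where 0.586% of all genes were called in either direction. Their median difference was −0.46 beside 0 over all genes. Fos, a transcription factor subunit, fell by 1.12 on the log2 scale (SE 0.36), Nr4a1, a nuclear receptor, by 0.75 (SE 0.23), Dusp1, a phosphatase of MAP kinases, by 0.66 (SE 0.18) and Btg2, an antiproliferative factor, by 0.47 (SE 0.15), each with an adjusted limma p of 1. Against control 0 were called in stress mice, 1 in ethanol + stress mice (Btg2, −0.66) and 0 in ethanol mice, beside the shares of all genes given above. At an unadjusted limma p under 0.05 there were 4 in stress, 5 in ethanol + stress and 0 in ethanol mice, where 2.4%, 5.37% and 3.63% of all genes passed. Summed over the 12 genes the level was 256 to 345 TPM in control, 185 to 351 TPM in ethanol, 138 to 262 TPM in stress and 142 to 277 TPM in ethanol + stress mice, so the groups overlapped. The mouse with the most short Homer1, ethanol + stress replicate 2 with 20.1 TPM, had a sum of 277 TPM, the highest of the mice with stress. Ethanol + stress replicate 1 and stress replicate 2, next with 18.9 and 17.4 TPM, had sums of 173 and 138 TPM, and control replicate 3, with 15.9 TPM, had 345 TPM.

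**Figure D5:**
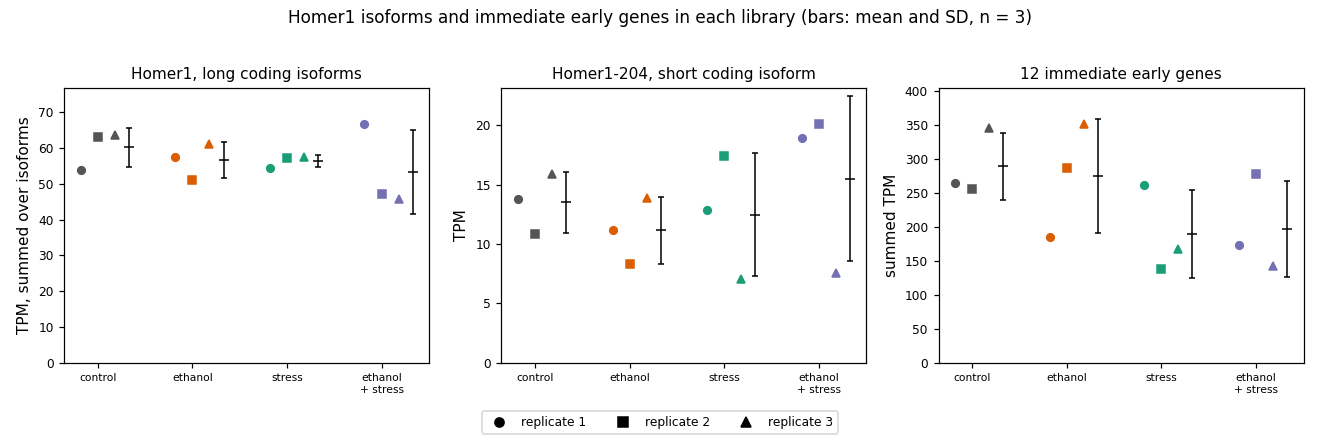
TPM of the long coding Homer1 transcripts, of the short transcript Homer1-204 and of 12 immediate early genes summed (y axes, starting at 0) in each library, by group; each point is 1 mouse, and bars give the mean and SD (n = 3). The groups overlap in all 3 panels, and the short form reaches both its highest value, 20.1 TPM, and its lowest, 7.08 TPM, in mice with stress.

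Genes for the binding partners of the scaffolds were not called. Of 41 genes for receptors, adhesion molecules, adaptors and enzymes of the postsynaptic density, all tested, 0 were called in any of the 6 comparisons. At an unadjusted limma p under 0.05 there were 0 with ethanol, 0 with stress and 2 with both exposures, Cask and the NMDA receptor subunit gene Grin2b, with differences of −0.30 (SE 0.11) and −0.61 (SE 0.24), and 2 of 41 is near the 5.37% of all genes at that threshold. In the main effect of ethanol the count was 3, these and Dlgap3, beside 5.79% of all genes, and in the main effect of stress and in the interaction it was 0. The median difference of the partners was −0.060 with ethanol, −0.022 with stress and −0.105 with both exposures, and after rescaling to a common total it was −0.141, −0.039 and −0.241, beside the medians over all genes given above for the scaffolds.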

How the data were processed

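Stranded, rRNA-depleted total RNA libraries of 12 hippocampi were analysed. Paired-end reads were quantified by the authors on the Ensembl mouse transcriptome, build GRCm38 (mm10), with kallisto and sleuth; CASAVA is also named in their processing notes, and versions are not given in the sources used here. The deposited signal is TPM per transcript, scaled between libraries by the authors. Of 115270 transcripts, 22618 were at 0 in every library and 113580 were matched by identifier to GENCODE vM21, which also gave gene names and classes; unmatched ones held 0.5182% to 0.5796% of a library. A single gene's sum also moves when read pairs pass between transcripts of different length.

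Groups and replicates followed the labels. TPM were summed per gene and per class, and isoform ratios were taken against the rest of the gene. Features with at least 0.1 TPM in 6 or more libraries entered limma 3.58.1 in R 4.3.3 (lmFit, contrasts.fit, eBayes with trend) on log2(TPM + 0.5), 1 model of 4 group means, two-sided, without a replicate block. Replicates are separate mice; shared litters are not given. Read pairs were recovered from low values of single-transcript genes of at least 800 bases, of which 79.43% to 84.12% came out whole (within 0.1 of a whole number), at a mean fragment of 198 to 212 bases. The floor of 3 read pairs covers counting error only, and the intervals treat estimated read pairs as counts. The model was tested on simulated data. Tables and plots used Python 3.11.15, pandas 2.3.3, numpy 2.4.6 and matplotlib 3.10.9.

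The members, gene lists and tests were chosen with earlier results of these data known. Named were all 10 gene sums, each member's highest transcript, every called transcript, the short and long Homer1 isoforms, and partners called in a comparison; Cask, Grin2b, Dlgap3 and Dlg2-213 were named after their values were seen. Alternatives were pseudocounts of 0.1 and 1, a minimum of 1 TPM, no filter, median-of-ratios scaling, TPM rescaled to a common total, removal of the trend over length, recovered read pairs, only the groups compared, a replicate block, each library left out, and, chosen after seeing the data, removal of the trend over GC content. The methylation data of the study were not used here.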

Additional observations from a re-analysis of the deposited data

Results flagged for a closer look

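The ethanol effect on Dlg4-222 differed between mice without and with stress by the interaction test of limma (−3.138 on the log2 scale, SE 0.784, called at an unadjusted p under 0.01, adjusted p of 1 by the Benjamini-Hochberg procedure). Its read pairs were 0, 0 and 1.66 in control and 4.55 to 9.36 in ethanol mice, but 3.06 to 7.49 in stress and 1.46 to 5.61 in ethanol + stress mice. Single outlying libraries were not tested for within groups of 3 mice.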

How the results depend on the processing

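None of the called differences changed direction under any alternative. Counts of called members moved with the settings. Calls on gene sums in the ethanol main effect went from 1 to 0 under a minimum of 1 TPM, median-of-ratios scaling, rescaled totals, recovered read pairs, the GC trend removed and the replicate block. Among all genes 128 to 198 were called there under these settings. Under a minimum of 1 TPM, which removes the rarest transcripts from the test, calls on transcripts were 2 with ethanol, 1 with stress and 0 with both exposures. Among all 35225 transcripts so tested there were 318, 236 and 356. Calls on class sums were then 0 in all 3, beside 202, 124 and 208 of all 21989 sums. With only the groups compared, calls in ethanol + stress mice were 1 for transcripts, 1 for class sums and 0 for isoform ratios, beside 805, 375 and 686 over all features. In stress mice they were 2 for isoform ratios, beside 603. Class sums in stress mice gave 2 calls (retained introns of Dlg2 added) under median-of-ratios scaling, rescaled totals, the length trend removed and the GC trend removed, beside 251 to 257 over all sums. Transcripts gave 2 for the interaction with the length trend removed, beside 519 over all transcripts. Isoform ratios gave 3 calls in ethanol and 2 in stress mice with a pseudocount of 0.1 (730 and 608 over all ratios) or with recovered read pairs (689 and 586). In ethanol + stress mice they gave 1 with a pseudocount of 1 (644 over all ratios) and 0 under a minimum of 1 TPM (344). The causes of these changes were not tested.

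Same-numbered mice of different groups did not deviate together (r from −0.17 to 0.16 over 18 pairs, 1 of them over 0.1), so the numbers were not taken to pair the mice. With the replicate block, calls were 0 for gene sums in the ethanol main effect, beside 178 of all 18434 genes. For transcripts they were 3 in ethanol mice (Dlg2-209 was lost), 4 in stress mice and 2 for the interaction, beside 726, 552 and 528 of all 59852 transcripts. In stress mice they were 2 for class sums (243 of all 32112) and 2 for isoform ratios (524 of all 52732).

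Leaving out 1 library at a time gave 0 to 1 calls on gene sums in ethanol + stress mice and 0 to 2 in the ethanol main effect. Among all 18434 genes there were 114 to 763 and 138 to 653. For transcripts it gave 3 to 7 in ethanol, 1 to 3 in stress, 1 to 5 in ethanol + stress mice and 1 to 4 for the interaction. Among all 59852 transcripts there were 593 to 847, 510 to 612, 612 to 1337 and 497 to 614. For class sums it gave 1 to 2, 0 to 1 and 1 to 3 in the same order of groups, beside 284 to 430, 217 to 269 and 279 to 949 of all 32112 sums. For isoform ratios it gave 1 to 2, 1 to 3 and 1 to 2, beside 575 to 743, 494 to 600 and 593 to 875 of all 52732 ratios. At 12040000 to 14910000 read pairs a library, transcripts under 3 read pairs could not be told from 0.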
